A study of Mus musculus with 14 samples.

Results

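The Zfp zinc finger genes were followed across the DNA methylation profiles of mouse mammary adipose tissue. They were taken as the sites whose nearest gene has a symbol of Zfp and a number, which gave 841 of the 75761 cytosines in the table and 123 of its 12628 gene symbols. Methylation was measured by reduced-representation bisulfite sequencing (RRBS), in which DNA is cut by MspI at CCGG, short fragments are kept, and the methylated share of the reads is counted at each cytosine they cover. The 14 mice were wild-type C57BL/6N females (C57BL/6NCrl in the study's methods), bought at 8 weeks of age and acclimatized for 1 week, in 4 groups that differed in diet and surgery. CON-LFD mice (n = 3) were fed 10% of calories from fat for the whole study, with sham surgery. DIO-HFD mice (n = 4) were fed 60% of calories from fat for the whole study, again with sham surgery. DIO-LFD mice (n = 3) ate the 60% diet for 15 weeks, then had sham surgery and changed to the 10% diet. DIO-VSG mice (n = 4) did the same but had vertical sleeve gastrectomy, a bariatric operation that removes most of the stomach, in place of the sham. All 14 carried an E0771 mammary tumor, injected 7 weeks after surgery into the opposite fat pad, for 4 weeks. The tissue is the fat pad without the tumor, although the labels also name the E0771 line. The table holds methylation only, so the cell types in the tissue could not be checked by their markers. No coverage comes with the levels, so how deeply each was sequenced is unknown. The mice are separate animals.

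Zfp is the mouse name for genes whose proteins carry zinc fingers, short loops of protein held in shape by a zinc ion. Most are of the C2H2 kind, in which a pair of cysteines and a pair of histidines hold the zinc and each finger contacts a few bases of DNA, so that a run of fingers reads a longer sequence. Many also carry a KRAB domain, which recruits the corepressor TRIM28 and with it enzymes that place repressive histone marks and DNA methylation, often at retroelements. The fingers of one protein are usually encoded together in 1 long last exon. In the GENCODE annotation 109 of the 123 genes encode at least 1 C2H2 pattern, with a median of 9 among them, and 33 genes encode a KRAB pattern. No such pattern was found in the other 14, which include the RNA-binding CCCH genes Zfp36, Zfp36l1, Zfp36l2 and Zfp36l3, the corepressors Zfp503 and Zfp703, and 2 pseudogenes. The sites were spread unevenly, with a median of 3 a gene. Zfp316 had 120 sites, Zfp503 had 73, Zfp423 had 37, Zfp36l2 had 35 and Zfp579 had 28. Sites are assigned to the nearest transcript, and 358 of the 841 lay outside the annotated span of the gene they are named for.

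The sequences that carry the results below are shown here, from GRCm38 (mm10), 5′ to 3′. The first 3 are parts of exons that encode zinc fingers, on the coding strand, and the next is a CpG island before Zfp956. In these the capitals are the CpGs that were measured. They lie at chr5:143253488-143253704 (minus strand), chr7:4994345-4994631 (minus strand), chr7:5053064-5053325 (plus strand) and chr6:47943474-47943569 (plus strand).
Zfp316: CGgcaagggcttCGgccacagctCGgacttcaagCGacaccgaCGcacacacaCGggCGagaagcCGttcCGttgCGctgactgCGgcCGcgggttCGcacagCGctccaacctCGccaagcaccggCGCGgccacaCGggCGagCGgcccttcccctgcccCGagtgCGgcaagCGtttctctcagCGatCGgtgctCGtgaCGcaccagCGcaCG
Zfp579: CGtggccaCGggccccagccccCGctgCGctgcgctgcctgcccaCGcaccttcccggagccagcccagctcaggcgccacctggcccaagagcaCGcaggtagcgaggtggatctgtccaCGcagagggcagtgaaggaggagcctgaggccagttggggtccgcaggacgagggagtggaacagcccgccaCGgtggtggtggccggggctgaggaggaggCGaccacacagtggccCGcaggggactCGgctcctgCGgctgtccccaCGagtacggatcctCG
Zfp580: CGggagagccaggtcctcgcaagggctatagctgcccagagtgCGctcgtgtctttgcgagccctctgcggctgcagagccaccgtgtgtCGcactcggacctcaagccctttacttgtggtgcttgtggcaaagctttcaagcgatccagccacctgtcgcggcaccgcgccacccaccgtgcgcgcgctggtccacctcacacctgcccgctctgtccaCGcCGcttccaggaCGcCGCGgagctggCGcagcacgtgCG
Zfp956: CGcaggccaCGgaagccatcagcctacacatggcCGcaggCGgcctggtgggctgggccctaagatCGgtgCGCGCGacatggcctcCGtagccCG
The last 2 are whole MspI fragments of promoters, shown because the levels at their ends mirrored each other, on the plus strand at chr5:124863167-124863285 and chr7:127345814-127345922. Their capitals are the CCGG at each end.
Zfp664: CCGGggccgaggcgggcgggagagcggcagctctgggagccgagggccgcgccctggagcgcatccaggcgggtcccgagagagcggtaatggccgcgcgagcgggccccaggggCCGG
Zfp768: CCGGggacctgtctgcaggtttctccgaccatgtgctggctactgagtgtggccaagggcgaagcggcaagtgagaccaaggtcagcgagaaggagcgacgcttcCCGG

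Methylation is usually low where a CpG island lies at an active promoter and high in the exons and introns of the same gene. Averaged over the 14 mice, the level was 52.4% at the 105 Zfp sites in promoter islands, which belong to 44 genes, and 66.8% at the 77 Zfp exon sites outside promoters and islands. The promoter islands minus the exons gave -14.3 percentage points ± 1.93 (SD over mice, n = 14), and the promoter islands were lower in all 14 mice. In the other genes the same difference was -26.8 points ± 2.97, from 41.8% in promoter islands and 68.5% in exons. Of the exon sites, the 30 in exons that encode fingers had a mean of 69.6% and the remaining 47 had a mean of 65.0%. Exons that encode fingers also held 143 sites inside CpG islands, and there the mean was 46.8% (55.0% at 274 such sites of other genes). Introns stood at 68.7%, islands elsewhere at 43.2% and sites outside genes at 67.1%. With the exon sites in islands counted as exon sites the difference turned to 0.399 points, and 95 of those 143 finger exon sites were in Zfp316.

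**Figure D1:**
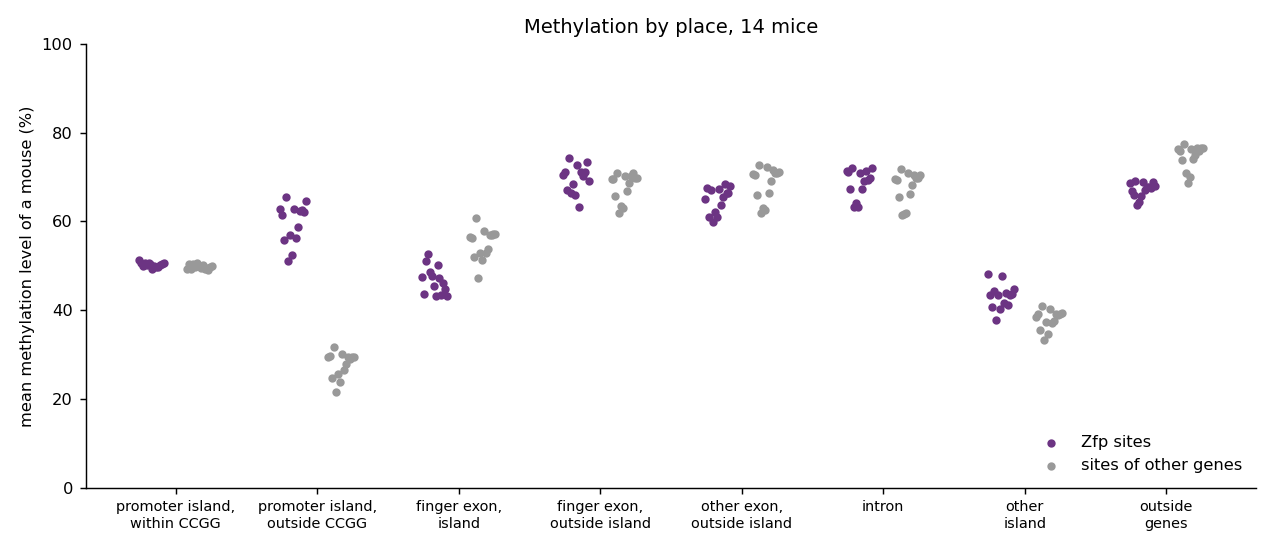
Each point is the mean methylation level (%) of 1 mouse over the Zfp sites (purple) or the sites of other genes (grey) in a class of places, with 14 mice a class. Zfp promoter island sites within CCGG sat between 49.3% and 51.3% in every mouse, those of other genes between 49.0% and 50.7%, and 14 of the 24 Zfp promoter island sites outside CCGG belong to the finger exon of Zfp579.

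Most of the promoter island sites lay in the CCGG that MspI recognizes, 81 of 105, against 252 of all 841 Zfp sites. At those 81 the mean of a mouse ran only from 49.3% to 51.3%, and in the promoter islands of other genes, with 6552 such sites, from 49.0% to 50.7%. The level lay between 40% and 60% at 59.3% of the 81 sites and at 61.9% of the 6552. None of the 81 was under 20%. Outside CCGG the promoter islands of other genes had a median of 23.4%, and 43.2% of their 3746 sites were under 20%. Only 24 Zfp promoter island sites lay outside CCGG, and 14 of them were in the finger exon of Zfp579, all 14 of which the table flags as promoter. Without Zfp579 the 10 sites left had a mean of 28.3%.

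The levels at the 2 ends of an MspI fragment in a promoter added up to about 100%. Neighbouring CCGG sites with no CCGG between them and at most 300 bp apart were paired, and some sites are in 2 pairs. In Zfp genes 27 such pairs lay in promoter islands, and the sum of the 2 levels, averaged over mice, had a median of 98.1%. It was between 90% and 110% for 23 of the 27. The median SD of the sum over the 14 mice was 3.24 points, where levels that vary independently would give 7.55. The SD of the sum was smaller than that of either end in 19 of the 27 pairs. Among the 30 Zfp pairs with neither end in a promoter the median sum was 119%, and 11 of them were between 90% and 110%. In other genes 78.7% of 2133 promoter island pairs and 27.4% of 3127 pairs away from promoters had such a sum.

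The mirror could be followed mouse by mouse. At the Zfp664 fragment shown above, in an intron of the gene, the left end read 33.0%, 32.9% and 30.9% in CON-LFD mice, 38.1%, 38.6%, 45.1% and 38.2% in DIO-HFD, 18.03%, 35.8% and 54.5% in DIO-LFD and 37.1%, 38.6%, 32.4% and 37.8% in DIO-VSG mice. The right end read 62.0%, 62.9% and 68.4%, then 58.8%, 58.0%, 51.4% and 58.7%, then 78.1%, 62.5% and 44.4%, and then 60.9%, 59.6%, 69.5% and 62.4% in the same order. The mouse with the lowest left end had the highest right end, and the sum stayed between 95.0% and 102%. At the Zfp768 fragment, which lies upstream of that gene, the ends averaged 42.4% and 55.7% and the sum 98.1% ± 1.64. At the start of Zfp692 they averaged 21.7% ± 11.04 and 75.8% ± 11.9, and the sum 97.5% ± 1.66.

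CpGs a few bases away from a CCGG did not share its level where the neighbour was low. In Zfp genes 37 CCGG sites had another measured CpG within 20 bp, and the CCGG site was higher in 35 of the 37. In 9 of these the neighbour was under 20%, with a median of 8.14%, while the median of the CCGG sites beside them was 54.3% and the lowest was 29.3%. That lowest one is in the promoter island of Zfp251, at chr15:76870878, which averaged 29.3% ± 22.0 (SD, n = 14), and the CpG 3 bp on averaged 3.724%. The same contrast was found in other genes, where 564 CCGG sites beside a CpG under 20% had a median of 53.2%. The 2 Zfp251 sites at the ends of this fragment, with SDs of 22.0 and 23.0 points, and a CCGG site near Zfp503 at chr14:21983567 had the largest SDs among the 841 sites. At Zfp251 the left end was 0% in 3 mice, CON-LFD replicate 1, DIO-LFD replicate 1 and DIO-VSG replicate 1, whose right ends were 100%, 96.4% and 100%, and the groups overlapped at both ends. What sets the level at these CCGG sites was not tested. Finger exons outside promoters held few of them, 9 of 143 sites in islands and 3 of 30 outside. With CCGG sites and promoter sites in finger exons left out, the difference between Zfp promoter islands and exons was -37.9 points. Few Zfp promoter island sites were left for it. In other genes, sites outside CCGG averaged 27.8% in promoter islands. Their exon sites outside promoters and islands averaged 67.3% in exons that encode fingers and 67.4% in the remaining exons.

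**Figure D2:**
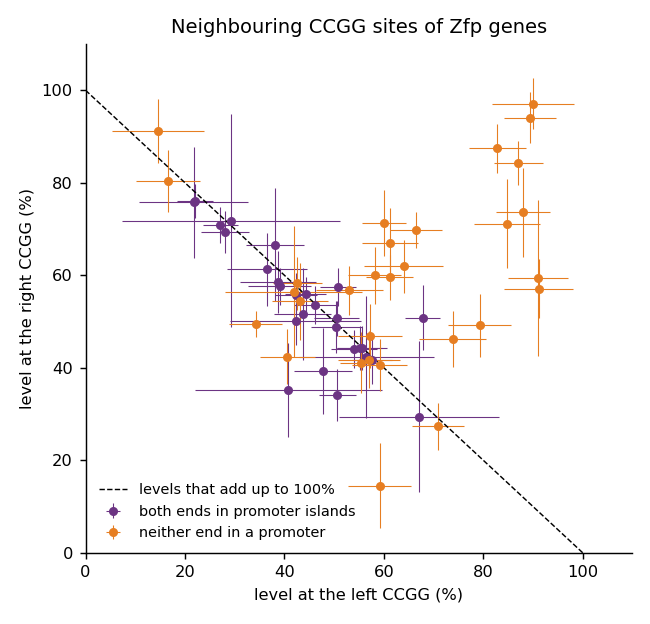
Each point is a pair of neighbouring CCGG sites of a Zfp gene, with the mean level (%) of the left site on the x axis, that of the right site on the y axis and bars of 1 SD over 14 mice. Pairs in promoter islands (purple, 27) lie along the dashed line of levels that add up to 100%, and pairs away from promoters (orange, 30) reach far above it.

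By limma no Zfp site passed an adjusted p of 0.05 in any of the 4 comparisons, among 724 tested, those whose SD over the mice was at least 0.05. Over all 65610 sites tested, 0.0% passed for CON-LFD against DIO-HFD and 0.00305%, or 2 sites, in each of the other 3. The first 3 comparisons share the DIO-HFD mice as controls. By an unadjusted p under 0.05 the count for CON-LFD against DIO-HFD was 45 Zfp sites, or 6.22%, where 7.76% of all sites passed. Of the 45, 21 were higher in CON-LFD (2.9%, against 6.0% of all sites) and 24 lower (3.31%, against 1.76%). Among all 724 tested sites the groups did not overlap at 27 (3.73%, against 4.68%). For DIO-LFD against DIO-HFD it was 79 sites, or 10.9% against 10.1%, with 44 higher (6.08% against 7.92%) and 35 lower (4.83% against 2.16%), and 52 of the 724 were without overlap (7.18% against 4.8%). For DIO-VSG against DIO-HFD it was 152 sites, or 21.0% against 25.0%, with 88 higher (12.2% against 20.2%) and 64 lower (8.84% against 4.85%). For DIO-VSG against DIO-LFD it was 33 sites, or 4.56% against 3.98%, with 14 higher (1.93% against 2.42%) and 19 lower (2.62% against 1.55%), and 51 of the 724 were without overlap (7.04% against 7.74%).

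DIO-HFD replicate 1 stood apart from the other 3 DIO-HFD mice over all tested sites, with a mean of 66.2% against 57.2% to 57.6%. Each mouse was left out in turn, and the fit without this one was singled out after its values were seen. With any other mouse left out, 0 Zfp sites passed an adjusted p of 0.05 by limma. Without DIO-HFD replicate 1, 185 Zfp sites passed it for DIO-VSG against DIO-HFD, or 25.6% against 34.4% of all sites. Of the 185, 120 were higher in DIO-VSG mice (16.6% against 28.8%) and 65 lower (8.98% against 5.62%). Without it 52 and 58 passed in the CON-LFD and DIO-LFD comparisons, or 7.18% against 12.0% and 8.01% against 14.6% of all sites.

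Most of the called sites were higher in DIO-VSG mice, in Zfp genes as in the table, but by different shares. Of the 152 Zfp sites, 88 were higher, or 57.9%, where 80.6% of all such sites were. The difference between these shares was not tested, and they are not matched for place. Introns held 88 of the 841 Zfp sites and 18978 of the 74920 sites of other genes, and finger exon islands held 143 and 274. In other genes 615 of 942 called sites in promoter islands were higher in DIO-VSG mice, 725 of 1025 in islands of remaining exons and 4465 of 5364 in introns. All 36 called sites of Zfp316 were lower, and without Zfp316 the Zfp share of higher sites was 75.9% of 116. The median M difference (M is the log2 ratio of methylated to unmethylated share) over tested sites was 0.11 for Zfp genes and 0.48 for all sites. With each mouse centred on its median, which removes the shift over all sites, 220 of 724 tested Zfp sites were called, against 13113 of all 65610. The shift was not the same in all places. In other genes the median M difference was 0.069 in promoter islands and 0.62 in introns. Centring thus moves places with a small shift downwards, and its part in the counts below was not tested. Of the 220, 38 were higher in DIO-VSG mice (17.3%), where 43.2% of all called sites were. Without Zfp316 it was 38 of 138 (27.5%). Centring moved the shares in the other comparisons too. For CON-LFD against DIO-HFD 17 of 59 Zfp sites were then higher (28.8%, against 55.0% of all such sites). It was 31 of 93 for DIO-LFD against DIO-HFD (33.3%, against 55.5%) and 12 of 45 for DIO-VSG against DIO-LFD (26.7%, against 37.7%). In the same order, 4958, 6529 and 3049 of all 65610 sites were called. Without Zfp316 the Zfp shares were 36.2%, 40.5% and 29.3%. DIO-VSG and DIO-HFD mice did not overlap at 86 tested Zfp sites, or 11.9%, against 7.58% of all sites. DIO-VSG was higher at 32 (4.42% against 5.55%) and lower at 54 (7.46% against 2.03%). Zfp316 held 46 of the 54, and without it DIO-VSG was higher at 32 of 610 tested sites (5.25%) and lower at 8 (1.31%). In finger exon islands, 39 of 132 tested Zfp sites were lower and 14 higher in DIO-VSG mice by unadjusted p. In those of other genes it was 48 lower and 60 higher of 256. Without Zfp316 the Zfp counts were 3 lower and 14 higher of 42. The tissue is bulk, and a change in methylation within cells and a change in the mix of cells cannot be told apart.

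Zfp316 had lower levels in DIO-VSG than in DIO-HFD mice along its finger exon. The gene lies at chr5:143249697-143270022 on the minus strand, encodes a KRAB pattern and 14 C2H2 patterns, and holds 101 measured sites in its finger exon between chr5:143253226 and chr5:143255416. Averaged over the 101 sites, the level was 41.3%, 40.3%, 38.5% and 35.2% in DIO-HFD mice and 28.5%, 32.6%, 30.4% and 28.4% in DIO-VSG mice. It was 35.9%, 29.3% and 41.4% in CON-LFD and 28.6%, 41.8% and 34.8% in DIO-LFD mice. The DIO-VSG mice all lay below the DIO-HFD mice, whose replicate 1 was not apart here, and the other 2 groups overlapped with both. The group means were 38.8% ± 2.70 (SD, n = 4) and 29.97% ± 2.01 (SD, n = 4). Of 96 sites tested in the exon, 94 had a lower estimate in DIO-VSG mice, 36 had an unadjusted p under 0.05, all lower, and at 46 the groups did not overlap. By the last 2 rules 4.85% and 2.03% of all sites tested were lower in DIO-VSG mice. Without DIO-HFD replicate 1, 28 of the 96 passed an adjusted p of 0.05, all lower. Of all sites tested, 34.4% then passed, 28.8% higher and 5.62% lower. Neighbouring sites share reads, so the 101 are not independent measurements.

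The exon had a low part. In the 217 bases shown above, which run from the first to the last measured site in fingers 11 to 13, 29 sites averaged 18.3%, while fingers 1 to 5 averaged between 41.4% and 45.3%. In this stretch the level was 22.1%, 27.98%, 29.3% and 23.1% in DIO-HFD mice and 9.88%, 15.2%, 14.8% and 11.5% in DIO-VSG mice, with 17.2%, 12.7% and 22.9% in CON-LFD and 10.9%, 20.6% and 17.99% in DIO-LFD mice. DIO-HFD mice were thus the highest group, and neither DIO-VSG nor DIO-LFD mice overlapped with them. DIO-VSG minus DIO-HFD was -13.9, -13.7 and -11.8 points in fingers 11, 12 and 13, and between -9.49 and -5.36 points in fingers 1 to 5. All 26 sites tested in the stretch had an unadjusted p under 0.05, and 24 passed an adjusted p of 0.05 without DIO-HFD replicate 1. By these 2 rules 4.85% and 5.62% of all sites tested were lower in DIO-VSG mice. The 5 lowest finger exon sites of all Zfp genes were in this stretch, with means of 10.5% to 14.18%. The site with the smallest p was chr5:143253680 in finger 11, at 19.7%, 31.3%, 31.0% and 25.5% in DIO-HFD mice and 7.88%, 9.76%, 10.9% and 9.96% in DIO-VSG mice, with an M difference of -1.68 ± 0.336 (SE), an unadjusted p of 0.000237 and an adjusted p of 0.150 by limma. The exact two-sided permutation p was 0.0286, the smallest that 4 mice against 4 allow. At chr5:143253669, 11 bp away, the M difference was -1.52 ± 0.328 with the same adjusted p. Between DIO-LFD and DIO-HFD mice the site chr5:143253650 had an M difference of -1.39 ± 0.389 (limma adjusted p = 0.494), with 4.21%, 7.82% and 8.54% in DIO-LFD and 18.77%, 13.6%, 22.6% and 13.5% in DIO-HFD mice.

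**Figure D3:**
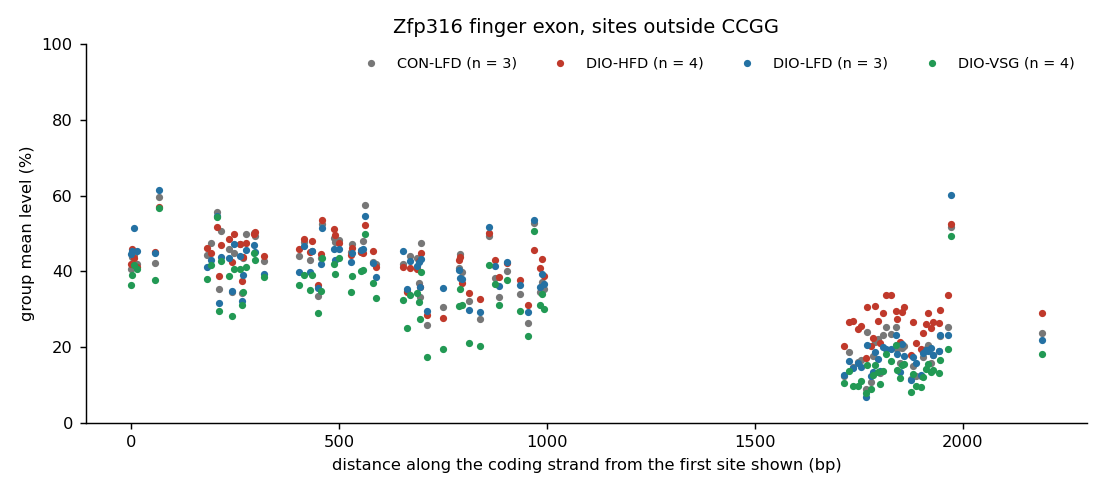
Group mean level (%) at each of the 96 sites outside CCGG in the finger exon of Zfp316, against distance in bp along the coding strand from the first site, with 3 or 4 mice a group. DIO-VSG (green) is the lowest group at most sites, and the stretch of fingers 11 to 13 is low in all groups.

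In the finger exons of 3 neighbouring genes the number of sites that passed rested on DIO-HFD replicate 1. Zfp579, Zfp865 and Zfp580 lie within chr7:4993183-5053628. In the finger exon of Zfp579 (25 sites, 81.3%) 13 sites had an unadjusted p under 0.05 and all were higher in DIO-VSG mice. Its means were 87.2%, 86.4%, 85.1% and 87.7% in DIO-VSG mice and 88.6%, 68.1%, 72.8% and 69.8% in DIO-HFD mice, so that the groups overlapped through DIO-HFD replicate 1. The 5 highest promoter island sites of all Zfp genes were in Zfp579, between 88.0% and 91.3%, and 4 of these are in the finger exon. The Zfp865 exon (14 sites) read 87.4%, 87.3%, 87.1% and 88.0% in DIO-VSG and 89.2%, 75.2%, 76.1% and 77.5% in DIO-HFD mice, with 3 sites higher. The Zfp580 exon (10 sites, 27.9%) read 25.4%, 37.2%, 35.9% and 36.5% in DIO-HFD and 22.7%, 27.2%, 26.3% and 21.3% in DIO-VSG mice, which overlapped, with 3 sites lower at an unadjusted p under 0.05. Without DIO-HFD replicate 1, 18 Zfp579 and 10 Zfp865 sites were higher and 5 Zfp580 sites lower with an adjusted p under 0.05 by limma. Of all sites tested, 28.8% were then higher and 5.62% lower. With all mice 20.2% of them were higher and 4.85% lower at an unadjusted p under 0.05.

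Zfp467, which favours adipocyte over bone cell formation, had 9 sites in its finger exon. They averaged 88.9%, 87.8%, 89.6% and 89.1% in DIO-VSG mice and 91.7%, 68.5%, 71.6% and 70.8% in DIO-HFD mice. Of them 4 were higher at an unadjusted p under 0.05, and all 9 passed an adjusted p of 0.05 without DIO-HFD replicate 1. By the same rules 20.2% and 28.8% of all sites tested were higher in DIO-VSG mice. Zfp408 had 4 sites there, all 4 lower in DIO-VSG mice at an unadjusted p under 0.05, at 70.8%, 77.5%, 84.9% and 72.5% against 80.8%, 94.2%, 96.3% and 95.9% in DIO-HFD mice. By that rule 4.85% of all sites tested were lower in DIO-VSG mice. The exons of Zfp651 (12 sites) and Zfp768 (4 sites) averaged 73.7% and 84.4% in DIO-VSG and 64.1% and 72.6% in DIO-HFD mice, with 1 and 3 sites higher. Over all 15 genes with sites in their own finger exon, the 84 sites inside a finger pattern averaged 46.4% and the 107 between or beside the patterns 58.7%. Without Zfp316 these were 66.03% for 35 sites and 79.1% for 55 sites. The medians of these 35 and 55 sites were close, at 81.9% and 82.6%, and the lowest sites were at 15.1% and 44.2%.

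**Figure D4:**
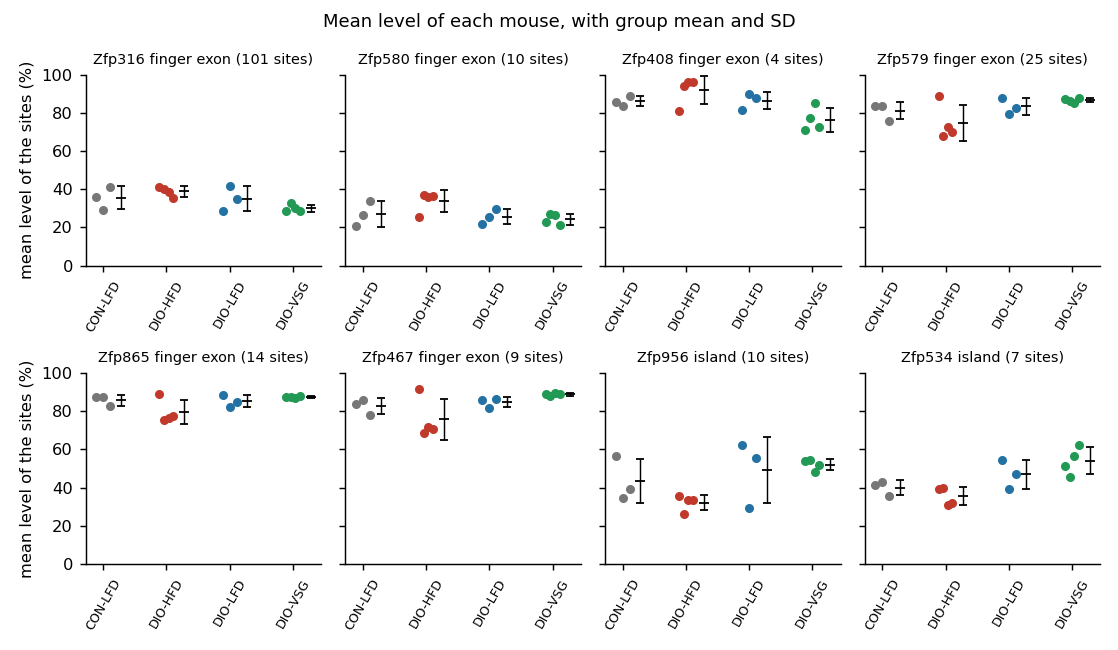
Mean level (%) of each mouse over the sites of 8 stretches, with the group mean and SD beside the points. DIO-VSG mice lie below all DIO-HFD mice in the Zfp316 exon and above them in the Zfp956 and Zfp534 islands, while in the Zfp579, Zfp865, Zfp467, Zfp580 and Zfp408 exons DIO-HFD replicate 1 lies apart from the other DIO-HFD mice.

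Most low island sites of Zfp genes had a lower estimate in DIO-VSG mice. Outside CCGG, 93 tested Zfp island sites had a mean under 30%, and 80 of them had a lower estimate in DIO-VSG than in DIO-HFD mice. Without Zfp316 it was 41 of 54, or 75.9%, in 13 genes, where 40.6% of 3664 such sites of other genes had a lower estimate. Island sites over 70% had a lower estimate at 4 of 48 Zfp sites, or 8.33%, and at 9.43% of the sites of other genes. Sites of a gene share reads, and these shares were not tested. Stretches of single genes make up part of the counts. All 21 tested sites of the Zfp423 island below and all 10 of the Zfp580 exon had a lower estimate. In the Zfp991 island it was 9 of 14 and in the Zfp956 island 0 of 10. Not all sites of these stretches are under 30%, and how many of the 54 they supply is not given. Zfp423, which commits cells to the adipocyte lineage, had 24 island sites outside exons and promoters with a mean of 24.9%, at 22.8%, 26.8%, 37.9% and 29.2% in DIO-HFD mice and 22.2%, 22.0%, 23.2% and 21.1% in DIO-VSG mice. Of the 21 tested, 2 were lower at an unadjusted p under 0.05, where 4.85% of all sites tested were. The 2 Zfp423 sites in its finger exon stood at 88.8%.

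The Zfp956 island shown above, whose last site lies at -9822 bp from the gene's start (negative is upstream), had higher levels in DIO-VSG mice. Its 10 sites averaged 54.0%, 54.5%, 48.0% and 51.6% in DIO-VSG mice and 35.3%, 26.1%, 33.6% and 33.7% in DIO-HFD mice, which did not overlap, with 56.4%, 34.7% and 39.5% in CON-LFD and 62.3%, 29.6% and 55.6% in DIO-LFD mice. Of the 10 sites 7 had an unadjusted p under 0.05 and 8 did not overlap, all higher in DIO-VSG mice. By these 2 rules 20.2% and 5.55% of all sites tested were higher in DIO-VSG mice. At 7 island sites near Zfp534 the means were 51.5%, 45.6%, 56.5% and 62.5% in DIO-VSG and 39.0%, 40.0%, 30.9% and 31.8% in DIO-HFD mice, again with no overlap, and 3 of the 7 had an unadjusted p under 0.05. Zfp534 belongs to a run of 7 related Zfp genes on chromosome 4 with 73 sites, where reads of similar copies may be placed on the wrong one. The other islands of that run, at Zfp986, Zfp988, Zfp991 and Zfp992, had 15, 8, 14 and 20 sites tested, and 1 of them, in Zfp992, had an unadjusted p under 0.05.

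In promoter islands the 2 sites with the smallest p between DIO-VSG and DIO-HFD mice were outside CCGG and in Zfp768. The site chr7:127345273, in an untranslated exon 151 bp from the start, read 11.8%, 11.8%, 14.3% and 12.7% in DIO-VSG mice and 10.6%, 0.621%, 0% and 0% in DIO-HFD mice, with an M difference of 2.86 ± 0.653 and an adjusted p of 0.150 by limma. CON-LFD mice read 13.2%, 9.38% and 11.2% there and DIO-LFD mice 8.57%, 7.64% and 14.3%, so that 3 DIO-HFD mice were apart from all others. At chr7:127345229 the M difference was 2.21 ± 0.614, and the groups overlapped. For levels near 0% the size of an M difference depends on the offset of 0.01. With all mice the adjusted p by limma was 0.150 at both sites. Without DIO-HFD replicate 1, which read 10.6% and 8.70% and was singled out after its values were seen, it was 0.000298 and 0.00189. Of the 81 Zfp promoter island sites within CCGG 49 were tested, and 2 of them differed between these groups at an unadjusted p under 0.05, or 4.08%, where 6.82% of 4680 such sites of other genes did. Outside CCGG it was 9 of 24 Zfp promoter island sites, or 37.5%, and 19.9% of 3137 in other genes. Without the 14 sites of Zfp579 it was 3 of 10. Over all places, 138 of 544 Zfp sites outside CCGG differed, or 25.4%, and 29.4% in other genes.

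Other sites with a small p lay away from promoters and exons. At chr2:165391934, -3676 bp from the start of Zfp334, the level was 56%, 57.4%, 58.8% and 63.8% in DIO-VSG, 51.6%, 57.5% and 49.6% in CON-LFD and 57.8%, 47.1% and 52.8% in DIO-LFD mice, and 45.3%, 31.3%, 31.1% and 31.4% in DIO-HFD mice. DIO-HFD mice were below every other mouse, with M differences of 1.41 ± 0.286 for DIO-VSG and 1.06 ± 0.309 for CON-LFD mice (limma adjusted p = 0.150 and 0.611). In an intron of Zfp516, which drives brown fat genes, the site chr18:82916396 read 34.6%, 29.7% and 52.4% in DIO-LFD and 20.8%, 0%, 9.23% and 4.00% in DIO-HFD mice (limma adjusted p = 0.494). Over its 19 sites Zfp516 averaged 47.1% in DIO-VSG and 40.3% in DIO-HFD mice. Of its 16 tested sites 6 were higher in DIO-VSG mice at an unadjusted p under 0.05, where 20.2% of all sites tested were. A site after Zfp503, chr14:21983571, read 2.44%, 0% and 2.22% in DIO-LFD and 3.57%, 16.7%, 9.52% and 9.09% in DIO-HFD mice (limma adjusted p = 0.494).

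For CON-LFD mice the other 2 sites were in the Zfp458 and Zfp936 regions. The Zfp458 site chr13:67271913, within CCGG, was at 91.3%, 81.8% and 95.2% in CON-LFD and at 100% in all 4 DIO-HFD mice. It was also at 100% in all 3 DIO-LFD mice, and at 100%, 100%, 91.2% and 100% in DIO-VSG mice. The site chr7:43140190, -37398 bp from the start of Zfp936, was at 81.4%, 63.3% and 83.3% in CON-LFD mice. DIO-HFD mice read 50.0%, 56.2%, 50.0% and 48.0% there (limma adjusted p = 0.611 at both sites). Between DIO-VSG and DIO-LFD mice the site chr5:104810255 near Zfp951 was at 100% in all 4 DIO-VSG mice and at 87.5%, 97.2% and 89.5% in DIO-LFD mice (limma adjusted p = 0.886). The sites chr7:127344492, in a coding exon of Zfp768 and flagged as promoter, and chr5:124894112 beyond Zfp664 were higher in DIO-VSG mice by 12.3 and 9.19 points (limma adjusted p = 0.945 at both). Each of these comparisons of 3 mice with 4 had an exact permutation p of 0.0571, the smallest possible.

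Lists of Zfp genes with known roles were also counted, with 0 sites at an adjusted p under 0.05 by limma in each list and comparison. Of 9 genes with roles in adipocytes or mammary cells, 6 had 76 sites, and 17 of 66 tested were higher and 2 lower in DIO-VSG than in DIO-HFD mice, counted by unadjusted p under 0.05. These were 25.8% and 3.03% of the sites tested, where 20.2% and 4.85% of all sites were higher and lower. The higher ones were 6 of Zfp516, 4 of Zfp467, 3 of Zfp423 and 2 each of Zfp217 and Zfp703, whose human counterparts are linked to breast cancer. The median M difference of the list was 0.16, beside 0.48 over all sites. In the same comparison 2 of 14 tested sites in genes of pluripotency and chromatin were higher (14.3%) and 0 lower, among them 1 of 7 in Zfp42, a marker of pluripotent cells, which was at 87.9%. In 3 CCCH genes that bind AU-rich messenger RNA, Zfp36, Zfp36l1 and Zfp36l2, 1 of 35 was higher (2.86%) and 7 lower (20%), all in Zfp36l2. Zfp36l3 was not on this list, and of its 2 sites 0 were higher or lower. None of the 6 genes known for imprinting, retroelement or placental silencing, such as Zfp57, had a site. Of 20 cofactors of KRAB proteins and DNA methylation 13 had 57 sites, with 10 higher and 1 lower of 52 tested, or 19.2% and 1.92%, against 20.2% and 4.85% of all sites. Of the 10, 7 were in Daxx, a histone H3.3 chaperone. Trim28 had 2 sites at 50.9%, and 0 of them differed. In CON-LFD and DIO-LFD mice against DIO-HFD mice, the counts of higher and lower sites were 3 and 4 and 8 and 4 for the adipocyte and mammary list, 0 and 0 and 1 and 0 for pluripotency, 0 and 2 and 1 and 1 for CCCH genes, and 2 and 2 and 3 and 1 for cofactors, where 6.0% and 1.76% and 7.92% and 2.16% of all sites were higher and lower. Between DIO-VSG and DIO-LFD mice they were 1 and 0, 1 and 0, 1 and 5, and 0 and 0 for the same lists, beside 2.42% and 1.55% of all sites.

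Genes with a KRAB pattern had 265 sites, and 47.9% of them lay outside the span of their gene, against 40.1% of the 576 sites of the other Zfp genes. They held 7 of the 105 promoter island sites and 101 of the 191 sites in finger exons of the own gene, all 101 in Zfp316. In the Zfp genes of chromosome 13 between 66734504 and 67647276, where Zfp458, Zfp640, Zfp712 and Zfp729a lie, 26 sites averaged 88.6%, and on chromosome 4 the run of 7 genes averaged 53.6%. Zfp503 and Zfp36l2, the 2 genes without a C2H2 pattern that had most sites, averaged 35.2% over 73 sites and 51.9% over 35 sites. At Zfp503 the mean was 36.2%, 32.7%, 39.9% and 36.9% in DIO-HFD and 35.2%, 34.3%, 35.5% and 35.6% in DIO-VSG mice, and the groups overlapped.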

How the data were processed

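RRBS levels of 14 mice were analysed. Per the study's methods, Bismark aligned the reads to mm10, samtools sorted the alignments and methylKit made the calls. The methods drop 2 outlying mice and sites of extreme coverage or of an SD under 0.05, although 117 Zfp sites of such an SD are in the deposited table. What the authors deposited is a fraction from 0 to 1 for each mouse and site, beside gene, promoter, exon and island flags. All 14 columns of mice were used, and groups came from the labels. The members and gene lists were chosen with earlier results of these data known.

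Levels b became M = log2((b + 0.01)/(1 - b + 0.01)). The 65610 sites with an SD of at least 0.05 were fitted with limma 3.58.1 in R 4.3.3, 4 groups in 1 model, with Benjamini-Hochberg adjustment over all of them; 724 were Zfp sites and the other 117 were described only. The fit was tested on simulated data. Sites named were the 3 with the smallest p among sites without overlap in each comparison, 2 each from promoter islands, finger exons and other places between DIO-VSG and DIO-HFD mice, the extremes of level and SD, the genes with most sites and the lists. The stretches described, other than these, were chosen after their values were seen. Single sites were also tested by exact two-sided permutation in SciPy 1.17.1. C2H2 patterns (C, 2 to 4 residues, C, 12 residues, H, 3 to 5 residues, H) and finger exons came from GENCODE vM21 coding sequences, and bases from the RefSeq GRCm38.p6 genome. Nothing shows whether libraries were made in batches. Alternatives were another offset, untransformed levels, other fits and filters, centring, a replicate block and leaving out each mouse.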

Additional observations from a re-analysis of the deposited data

Results flagged for a closer look

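Within groups of 4 mice, a mouse counted as far from the others where its gap to the nearest, divided by the range of the group, passed Dixon's critical value for 4 samples. Of 84 groups 12 passed. Chance gives about 1 in 20, or 4.2, for groups that are independent and not chosen by their values. These groups share mice, and some were chosen by their values, so 12 beside 4.2 is not a test. In 10 of the 12 the mouse was DIO-HFD replicate 1. The ratio was 0.896 for Zfp intron sites (72.03% against 63.2% to 64.1%) and 0.873 for promoter islands minus exons (-15.8 points against -12.5 to -12.0). In finger exons it was 0.869 for Zfp408, 0.865 for Zfp467, 0.892 for Zfp580 and 0.834 for Zfp865, with the levels given above. It was 0.958 for the Zfp992 island (68.3% against 56.5% to 57.0%) and 0.898 over the sites of Zfp516 (45.6% against 38.1% to 38.9%). At single sites it was 0.980 near Zfp334 and 0.941 at chr7:127345273 in Zfp768. The remaining 2 were in DIO-VSG mice. At chr5:143253669 in Zfp316 replicate 2 read 13.2% and the others 8.397% to 9.01%, a ratio of 0.872. At the Zfp458 site replicate 3 read 91.2% and the others 100%, a ratio of 1.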

How the results depend on the processing

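Comparisons are given in the order CON-LFD, DIO-LFD and DIO-VSG against DIO-HFD, then DIO-VSG against DIO-LFD. Leaving out 1 mouse at a time gave 0 to 52, 0 to 58, 0 to 185 and 0 to 0 Zfp sites at an adjusted p under 0.05, and every count above 0 was without DIO-HFD replicate 1. At an unadjusted p under 0.05 the ranges were 20 to 164, 41 to 182, 96 to 268 and 24 to 59. The highest counts were without DIO-HFD replicate 1 in the first 3 and without DIO-LFD replicate 1 in the last, and the lowest without CON-LFD replicate 1, DIO-LFD replicate 1, DIO-HFD replicate 2 and DIO-VSG replicate 1. Fitting only the groups compared gave 21 and 37 sites in the first 2, and an SD of at least 0.1 gave 7, 23, 40 and 9, with fewer sites tested. Deviations of same-numbered mice had r from -0.08 to 0.20 in 19 pairs, with a median of 0.034 and 4 over 0.1. Mice with different numbers had r from -0.29 to 0.19 in 54 pairs, with a median of -0.016 and 2 over 0.1. Whether the numbers stand for a shared factor was not tested. With the replicate block the counts were 44, 73, 158 and 34, and 0 after adjustment. Chosen after seeing the data, leaving out Zfp316 gave 37, 65, 116 and 31 of 610 tested sites (6.07%, 10.7%, 19.0% and 5.08%). Of all sites tested, 7.76%, 10.1%, 25.0% and 3.98% passed. Leaving out CCGG sites gave 39, 59, 138 and 22 of 544. No unadjusted share of all sites is given here for the other settings, so their counts do not compare Zfp sites with the rest. Promoter islands minus exons was -11.1 points with sites of an SD of at least 0.05, -20.7 with each gene counted once and -17.5 in genes with a C2H2 pattern. Of alternatives chosen after seeing the data, it was -6.47 without CCGG sites, -18.9 without promoter sites in finger exons, -37.9 without both, and 0.399, reversed, with exon islands counted as exons. Leaving out a mouse gave -14.5 to -14.1. Of 15 comparisons at named sites 12 passed an adjusted p of 0.05 without DIO-HFD replicate 1, and 0 under each other setting. The 15 were named for a small p, so the 12 are no independent support. In the fit without that mouse 12.0%, 14.6% and 34.4% of all sites passed in the first 3 comparisons. Read depth is not known, so its part in these limits was not tested.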
